A study of Mus musculus with 14 samples.

Results

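A group of 8 genes whose counts separated oocytes with catalytically dead AGO2 from oocytes without AGO2 was described in full-grown mouse oocytes: Gpr20, Slc4a3, Wdfy1, Lancl1, Gli3, Ccnd2, Mnat1 and Dpf3. The genes were chosen by their read counts, from 20337 genes with a symbol, because these counts differed between the Ago2 ADH and the Ago2 null libraries. They are 8 of the 17 genes that pass an FDR of 1% in that comparison, so values from the libraries of the Ago2 cross are given for them as a description, without a test. The Dicer WT and Dicer KO libraries took no part in the choice, and the members were tested there.

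RNA-seq was performed on 14 libraries of 20 germinal vesicle-intact oocytes each, taken from females of 4 to 6 weeks at 48 h after priming with 5 IU of equine chorionic gonadotropin (eCG), and a tube pooled oocytes from several animals of one genotype. Ago2 fl/fl oocytes (3 libraries) carried 2 floxed Ago2 alleles and served as the control. Ago2 ADH oocytes (3 libraries) came from Ago2 fl/ADH females with Zp3-Cre, which is expressed in growing oocytes; their floxed allele was deleted there, which left 1 knock-in allele whose DDH catalytic motif is ADH and whose product binds small RNAs but cannot cut a target. Ago2 null oocytes (2 libraries) came from Ago2 fl/fl females with Zp3-Cre, from the same crosses, and lost functional Ago2. By the breeding scheme Cre was in both Ago2 mutants and not in Ago2 fl/fl, so Cre and genotype cannot be told apart in those comparisons. Dicer KO oocytes (3 libraries), with Dicer WT as their control (3 libraries), lost the enzyme that makes small RNAs in oocytes only. The Ago2 mice were bred from 3 transgenic lines of different strains, the names of the deposited tables give each Ago2 genotype a lane number of its own, and the Ago2 and Dicer sets were separate crosses, so genotype, lane and strain segments that travelled with an allele cannot be told apart. Nothing in these data gives the strain of a chromosome segment.

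AGO2 is the Argonaute protein that cuts RNA paired with a small interfering RNA (siRNA). Mouse oocytes make abundant endogenous siRNAs, for which Dicer is needed, while microRNAs have little activity at this stage. Mutants that lack Dicer, AGO2 or the AGO2 catalytic site alone therefore remove overlapping steps of one pathway. By genotype, the catalytically dead oocyte has an inactive AGO2 and the null oocyte has less or none. Lane and strain segments may differ between them too, so a gene that reads differently there cannot be assigned to AGO2.

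Libraries held 29380403 to 58285057 counts on transcripts, at which 3 counts, the limit used here for a gene with no count, correspond to 0.0515 to 0.102 CPM. CPM is the count scaled to the library's total by the TMM method, and levels are compared for one gene between libraries, not between genes. Amplified reads are not independent molecules, so counting intervals cover counting error only. Ago2 itself read 24.1 to 25.6 CPM in Ago2 fl/fl, 12.4 to 13.8 in Ago2 ADH and 5.27 to 7.18 in Ago2 null, in the order of the genotypes. Dicer1 read 745 to 779 CPM in Dicer WT and 1669 to 1928 in Dicer KO. A count over the whole transcript does not show whether the deleted exons were read, so it does not check that label, and Dicer KO stands below for the libraries so labelled. All 12 oocyte markers were detected in every group, with a summed level of 12713 to 19561 CPM per library. Markers of cumulus and granulosa cells summed to 58.1 to 104.8 CPM, mostly Cyp19a1 and Nr5a2. Theca and stroma markers (9 genes) summed to 3.78 to 4.61 CPM in Ago2 fl/fl, 5.69 to 9.43 in Ago2 ADH, 4.93 to 5.58 in Ago2 null, 2.79 to 3.59 in Dicer WT and 3.35 to 4.88 in Dicer KO. Blood and endothelial markers (7 genes matched) summed to 37.6 to 41.7, 40.1 to 43.7, 32.4 to 34.3, 42.5 to 46.0 and 37.4 to 40.001 CPM in that order. In such pooled samples fewer cells that express a gene and less RNA per cell cannot be told apart.

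**Figure D1:**
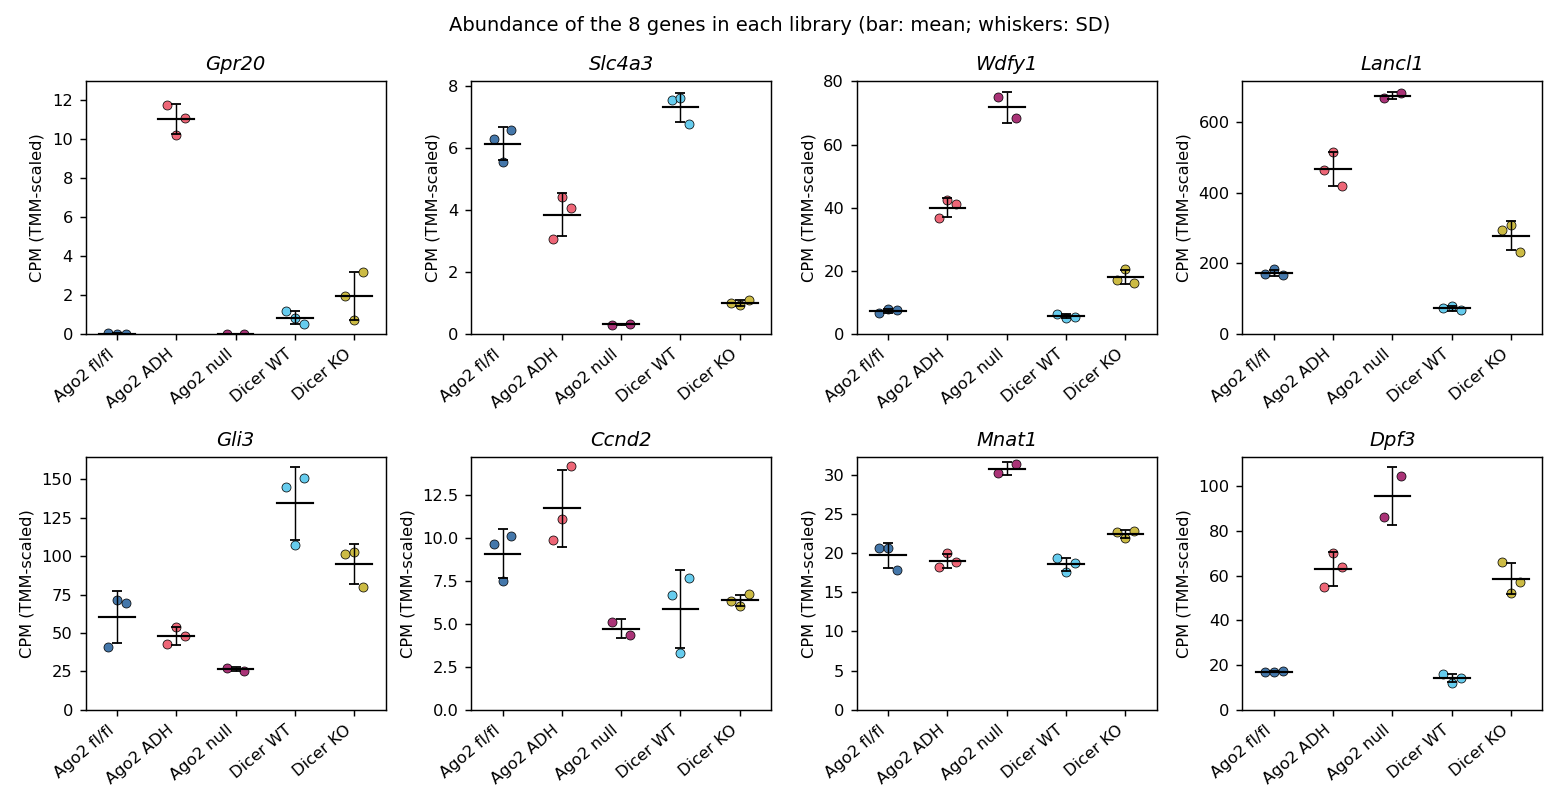
Abundance (TMM-scaled CPM, linear axes from 0) of each of the 8 genes, with 1 point per library, the group mean as a bar and the SD as whiskers, for the 3 Ago2 groups and the Dicer pair. Gpr20 is highest in Ago2 ADH, at 10.2 to 11.8 CPM; Wdfy1, Lancl1 and Dpf3 step up from Ago2 fl/fl to Ago2 ADH to Ago2 null; and Mnat1 and Ccnd2 differ from the other Ago2 groups in Ago2 null.

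The members did not behave as one group. Wdfy1, Lancl1 and Dpf3 were higher than the control in both Ago2 mutants and higher still in Ago2 null. Slc4a3 and Gli3 were lower in both means and lowest in Ago2 null, Mnat1 and Ccnd2 departed from Ago2 fl/fl mainly in Ago2 null, and Gpr20 was present in Ago2 ADH and nearly absent from the other Ago2 groups. In 4 members (Slc4a3, Wdfy1, Lancl1 and Dpf3) the 3 Ago2 ADH libraries lay wholly between those of Ago2 fl/fl and Ago2 null, which was so for 8.61% of all transcripts. That position needs Ago2 ADH and Ago2 null libraries that do not overlap, so the choice of members raised its count beforehand. Over all transcripts, 1637 had that position and 5026 had no overlap between Ago2 ADH and Ago2 null. By choice, all 8 had Ago2 ADH and Ago2 null libraries that did not overlap (26.0% of all transcripts), 4 with the higher level in Ago2 ADH. At an FDR of 1%, 0.119% of 19306 tested transcripts were called in that comparison, 0.0673% higher and 0.0518% lower in Ago2 ADH, values that chose the members and support nothing here. Against Ago2 fl/fl the libraries did not overlap in 5 of 8 members in Ago2 ADH (60.0% of all transcripts) and in 7 of 7 that passed the filter in Ago2 null (66.9%). Gpr20, among the 5, passed the filter through Ago2 ADH alone, and in Ago2 null, where it did not pass, its libraries overlapped the control. The mutant libraries of these counts also chose the members, so the counts are a description. In Dicer KO, 5 of the 8 members changed by edgeR's quasi-likelihood test at an FDR of 1%, 3 up and 2 down, where 34.5% of all tested transcripts changed, 16.7% up and 17.8% down. The groups did not overlap in 6 of the 8 members there, against 54.7% of all transcripts.

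**Figure D2:**
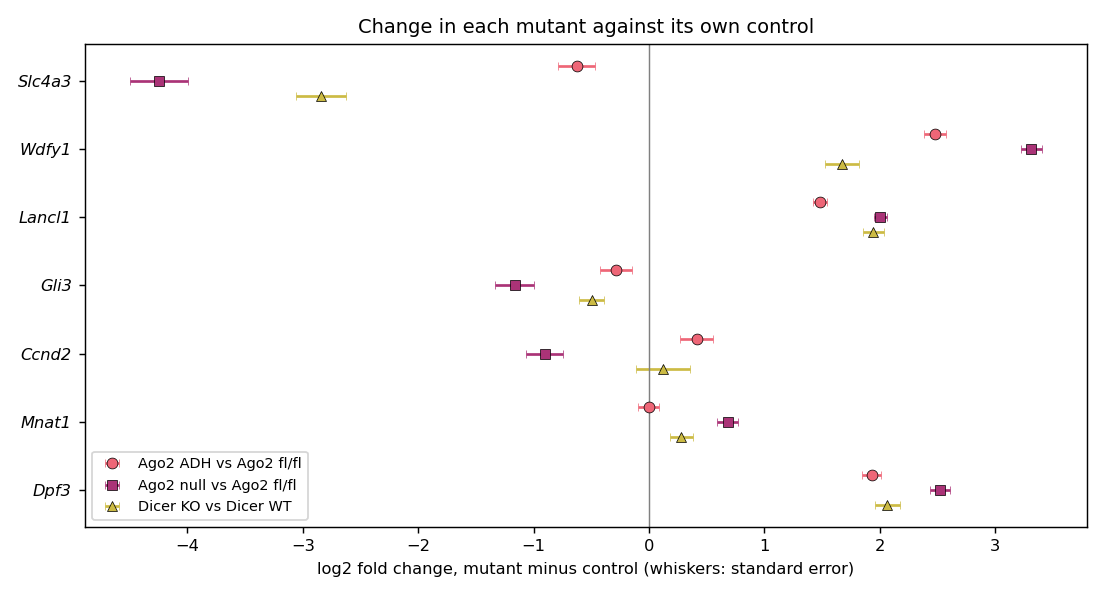
Log2 fold change of 7 members (Gpr20, with almost no count in the Ago2 control, is left out) in Ago2 ADH and Ago2 null against Ago2 fl/fl and in Dicer KO against Dicer WT, with standard errors as whiskers. Wdfy1, Lancl1 and Dpf3 lie to the right of 0 in all 3 mutants and Slc4a3 and Gli3 to the left, while Mnat1 in Ago2 ADH lies at 0.

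Gpr20 encodes an orphan G protein-coupled receptor. Its transcript, NM_173365, lies on the minus strand of GRCm38 chr15:73688497-73707505, with its start coordinate 0.587 Mb from that of Ago2 on the same chromosome. In Ago2 ADH the 3 libraries held 642, 558 and 481 counts (11.8, 10.2 and 11.1 CPM). In Ago2 fl/fl they held 2, 0 and 0 counts, and both Ago2 null libraries held 0. The summed theca and stroma markers were also highest in Ago2 ADH, mostly through Hsd3b1. That gene averaged 5.05 CPM there, 2.48 in Ago2 null and 1.22 in Ago2 fl/fl. From Ago2 fl/fl to Ago2 ADH, Star rose (0.787 to 1.42 CPM), while Dcn (1.06 to 0.513) and Pdgfra (0.818 to 0.287) fell. The summed blood and endothelial markers lay above those of Ago2 null, mostly through Pecam1 (41.5 CPM in Ago2 ADH and 33.2 in Ago2 null). The part of these markers in the Gpr20 level was not tested. Within the Ago2 cross Gpr20 was thus read with the knock-in allele and was at or below the limit of detection without it. Summed over libraries and divided by total counts, Ago2 ADH was at least 396-fold higher than Ago2 null, with 3 counts over the group standing for 0, and 936 times Ago2 fl/fl (95% counting interval 259 to 7732). Dicer WT libraries held 46, 33 and 22 counts (1.19, 0.821 and 0.524 CPM) and Dicer KO libraries 61, 20 and 113 (1.97, 0.708 and 3.21 CPM). The Dicer groups overlapped, and their difference, 1.23 on the log2 scale (SE 0.453), did not pass the FDR of 1% (edgeR adjusted p = 0.0324). It passed without Dicer KO replicate 2, where the difference was 1.63 (edgeR quasi-likelihood adjusted p = 0.00375), and the difference was 0.68 without Dicer KO replicate 3, the highest library (edgeR adjusted p = 0.286). Dicer WT oocytes, from a cross in which Ago2 was not targeted, thus read Gpr20 where Ago2 fl/fl oocytes hardly did, at a count ratio of 70.0 (counting interval 18.9 to 586), a pair of values from separate crosses.

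The genes beside Gpr20 were then examined, because a gene close to Ago2 tends to be inherited with the knock-in allele. Dennd3, a GDP-GTP exchange factor for Rab12, averaged 11.2 CPM in Ago2 ADH and 11.3 in Ago2 null. Slc45a4, a transporter gene, averaged 3.69 and 2.85 CPM, and 2.12 in Ago2 fl/fl. Against Ago2 fl/fl it was called in Ago2 ADH (log2 fold change 0.84) and not in Ago2 null (0.46), while Dennd3 fell in both (-0.75 and -0.74). On the other side of Gpr20, Ptp4a3, which encodes a phosphatase, averaged 1.45 and 1.44 CPM and was called in neither mutant against Ago2 fl/fl. Adgrb1, an adhesion G protein-coupled receptor, averaged 0.725 in Ago2 ADH and 0.0716 in Ago2 null, and 1.22 in Dicer WT against 0.0995 in Dicer KO. Against Ago2 fl/fl, Adgrb1 was called in Ago2 null (log2 fold change -2.99) and not in Ago2 ADH (0.29). Between Ago2 ADH and Ago2 null none of these neighbours was called in the main fit. Adgrb1, lower in Ago2 null, was called there only with the replicate block or without the filter on low counts. Within 5 Mb of Ago2, 2 of 78 tested genes were called between Ago2 ADH and Ago2 null, Ago2 and Gpr20, and 7 had an unadjusted p under 0.05. Without Ago2 ADH replicate 1 or without Ago2 null replicate 2, the count was 1, Gpr20. Whether the level of Gpr20 follows the chromosome segment that carries the knock-in, the ADH protein or the lane cannot be told apart, because the knock-in allele is in the Ago2 ADH group only.

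Among the genes that control cAMP in oocytes, the second messenger that a G protein-coupled receptor can act on and that holds meiosis in prophase, 12 of 13 listed genes besides Gpr20 were tested. In Dicer KO 2 were higher and 3 lower, in Ago2 ADH 2 and 5 (background 40.7% of transcripts, 20.5% higher and 20.1% lower) and in Ago2 null 2 and 4 (background 37.2%, 18.1% higher and 19.1% lower). Gnai1, an inhibitory G protein subunit, fell (log2 fold changes -1.04, -1.33 and -1.17) in Dicer KO, Ago2 ADH and Ago2 null. Prkar2a, a regulatory subunit of protein kinase A, rose by 0.68, 0.81 and 0.77, and Prkar1a, another, fell (log2 fold changes -0.61, -0.28 and -0.36). Gpr3, the receptor that keeps cAMP high in the oocyte, fell in the Ago2 mutants (-0.48 and -0.65) and was not called in Dicer KO (-0.18). Over the 9 gene lists used here, 102 genes were tested between Ago2 ADH and Ago2 null, of which 0 were called by edgeR and 0 by DESeq2, while 17 had an unadjusted edgeR p under 0.05, 2 of them in the cAMP list. The median log2 fold changes of the list were -0.07, -0.12 and -0.15, beside medians within 0.01 of 0 over all transcripts.

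Slc4a3, which lies on chromosome 1 with Wdfy1 and Lancl1, encodes an anion exchanger that swaps chloride for bicarbonate. It lies on the plus strand at chr1:75546044-75559431. Its levels were 6.29, 5.55 and 6.58 CPM in Ago2 fl/fl, 3.07, 4.42 and 4.07 in Ago2 ADH and 0.304 and 0.322 in Ago2 null. No pair of these groups overlapped, and the catalytically dead oocytes kept most of a transcript that the null oocytes nearly lacked. On the log2 scale Ago2 ADH fell by 0.63 (SE 0.160) and Ago2 null by 4.24 (SE 0.251) against Ago2 fl/fl, so that the change in Ago2 ADH was 14.8% of that in Ago2 null. Ago2 ADH was 12.1 times Ago2 null. In Dicer WT the levels were 7.55, 7.62 and 6.77 CPM and in Dicer KO 1.00, 0.920 and 1.11. Dicer KO thus lay below Dicer WT in every library, by 2.84 on the log2 scale (SE 0.219, edgeR quasi-likelihood adjusted p = 3.83e-09).

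Of the other SLC4 bicarbonate transporters, 9 listed, 6 were tested in Dicer KO and in Ago2 ADH and 7 in Ago2 null. None rose and 3 fell in Dicer KO and in Ago2 ADH, while 2 rose and 3 fell in Ago2 null. Slc4a10, a sodium-bicarbonate transporter, fell (log2 fold changes -2.07, -2.82 and -2.54) in Dicer KO, Ago2 ADH and Ago2 null. Slc4a7, another, fell (log2 fold changes -0.61, -0.56 and -0.78), and Slc4a5 fell likewise (-0.62, -0.56 and -0.61). In these genes the decrease in Ago2 ADH was near that in Ago2 null, unlike Slc4a3, although Slc4a7 was among 3 listed transporters with an unadjusted p under 0.05 between the 2 groups. Slc4a11 and Slc4a2 were the genes that rose in Ago2 null. Slc4a11 averaged 0.0578 CPM in Ago2 fl/fl, near the limit of detection, and 0.546 in Ago2 null, and Slc4a2 averaged 8.37 and 11.2. Slc4a9 did not exceed 0.0358 CPM in any library. Over the list the median log2 fold changes were -0.24, -0.43 and -0.01.

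Wdfy1 encodes a protein with WD repeats and a FYVE domain, which binds the phosphoinositide of early endosomes. It lies at chr1:79702262-79776143 on the minus strand, and its exons share bases with Mrpl44, so without strand their reads cannot be told apart there. The counts of Mrpl44 stayed between group means of 7.97 and 9.44 CPM. Wdfy1 itself read 6.72, 7.99 and 7.54 CPM in Ago2 fl/fl, 36.7, 42.4 and 41.0 in Ago2 ADH and 75.1 and 68.4 in Ago2 null. Each step upwards was without overlap. Against Ago2 fl/fl the log2 change was 2.48 (SE 0.0947) in Ago2 ADH and 3.31 (SE 0.0925) in Ago2 null, which puts Ago2 ADH at 74.8% of the Ago2 null change, and Ago2 null was 1.81 times Ago2 ADH. The Dicer WT libraries read 6.49, 5.05 and 5.44 CPM and the Dicer KO libraries 17.2, 20.6 and 16.2. All 3 Dicer KO libraries were above Dicer WT, by 1.67 on the log2 scale (SE 0.148, edgeR adjusted p = 2.65e-08).

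A second, shorter transcript of Wdfy1, NM_027057, rose with the main one, NM_001111279, against every control, but differed from it between the Ago2 mutants. Reads in exons that both share are counted on both. The short transcript averaged 0.562 CPM in Ago2 fl/fl and 1.02 in Dicer WT, and was 10.7 times its control in Ago2 ADH, 9.15 times in Ago2 null and 4.84 times in Dicer KO (the main transcript 5.57, 9.94 and 3.19 times). It read 5.75, 5.47 and 6.38 CPM in Ago2 ADH and 5.46 and 4.59 in Ago2 null, levels that lay close together while the main transcript differed. As a share of the main transcript's count it came to 7.53% ± 0.742 (SD, n = 3) in Ago2 fl/fl, 14.7% ± 1.56 (n = 3) in Ago2 ADH and 6.99% ± 0.392 (n = 2) in Ago2 null. The Ago2 ADH libraries were thus above both other Ago2 groups. In the Dicer set the share was 18.6% ± 5.26 in Dicer WT and 27.9% ± 5.64 in Dicer KO (SD, n = 3 each), groups that overlapped (two-sided exact permutation p = 0.2, where 0.1 is the smallest that 3 against 3 can give).

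Of 10 other WDFY family and endosomal phosphoinositide genes, 2 rose and 2 fell in Dicer KO, 2 rose and 1 fell in Ago2 ADH, and 3 rose and 3 fell in Ago2 null. Wdfy4, a relative active in antigen presentation, rose by 2.51, 3.57 and 3.47 on the log2 scale in Dicer KO, Ago2 ADH and Ago2 null. Pikfyve, a lipid kinase of endosomes, rose by 0.42, 0.87 and 0.85, and Wdfy3, which takes part in autophagy, fell (log2 fold changes -0.34, -0.32 and -0.36). Wdfy4 and Wdfy1 thus rose in Dicer KO alike in sign, but Wdfy4 was at nearly one level in both Ago2 mutants. Median changes of this list were -0.10, -0.02 and -0.09 on the log2 scale.

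Lancl1, which encodes a LanC-like protein that binds glutathione, lies at chr1:67000517-67038891 on the minus strand, 8.55 Mb from Slc4a3 and 12.7 Mb from Wdfy1. Its 3 transcripts had near-equal counts, and NM_001190985 stands for them. Its levels were 169, 183 and 166 CPM in Ago2 fl/fl, 464, 516 and 419 in Ago2 ADH and 667 and 681 in Ago2 null. The 3 groups were apart from one another, in that order. Ago2 ADH was higher than Ago2 fl/fl by 1.48 on the log2 scale (SE 0.0618) and Ago2 null by 2.01 (SE 0.0578), so that Ago2 ADH reached 73.9% of the Ago2 null change and Ago2 null was 1.46 times Ago2 ADH. In Dicer WT it read 72.1, 78.9 and 66.5 CPM and in Dicer KO 294, 309 and 232. It rose in Dicer KO by 1.95 on the log2 scale (SE 0.0918, edgeR quasi-likelihood adjusted p = 2.64e-12), with no overlap.

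Of 10 other LanC-like and glutathione genes, 9 were tested in Dicer KO, where 2 rose and 2 fell; in Ago2 ADH 3 rose and 2 fell, and in Ago2 null 1 rose and 1 fell. Gpx1, a glutathione peroxidase, rose by 1.57, 1.40 and 1.51 on the log2 scale in Dicer KO, Ago2 ADH and Ago2 null. Lancl2, the closest relative of Lancl1, fell (log2 fold changes -1.07, -0.36 and -0.61), so the paralogs moved in opposite directions in each mutant. Gclc, of glutathione synthesis, rose by 0.76 in Dicer KO and was not called in the Ago2 mutants. On the log2 scale the medians of these genes were 0.09, 0.02 and 0.09.

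Dpf3, on the minus strand of chr12:83213751-83487736, encodes a PHD finger subunit of the BAF chromatin remodelling complex, which binds modified histone tails. Its levels were 16.9, 16.9 and 17.4 CPM in Ago2 fl/fl, 55.1, 70.1 and 63.8 in Ago2 ADH and 86.4 and 104.6 in Ago2 null. The controls were tight, and both mutants lay above them without overlap. The log2 changes were 1.93 (SE 0.0828) and 2.52 (SE 0.0851), Ago2 ADH at 76.5% of the Ago2 null change. In Dicer WT it read 15.7, 12.05 and 14.3 CPM and in Dicer KO 66.1, 52.4 and 57.1. Dpf3 thus rose in Dicer KO in every library, by 2.07 on the log2 scale (SE 0.110, edgeR adjusted p = 1.64e-11), to a level that overlapped the Ago2 ADH libraries.

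The share of a second Dpf3 transcript was lower in every mutant than in its control, and the Ago2 mutants overlapped. NM_001267625 had 74.5% ± 3.42 of the count of NM_001267626 in Ago2 fl/fl, 43.8% ± 0.608 in Ago2 ADH (SD, n = 3 each) and 42.4% ± 2.46 in Ago2 null (n = 2). In Dicer WT it was 81.5% ± 2.93 and in Dicer KO 54.7% ± 2.21 (SD, n = 3 each). The Dicer groups did not overlap, and the two-sided exact permutation test gave p = 0.1, the smallest possible with 3 against 3, so this design cannot reach 0.05 for a single ratio. As with Wdfy1, shared exons enter both counts.

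**Figure D3:**
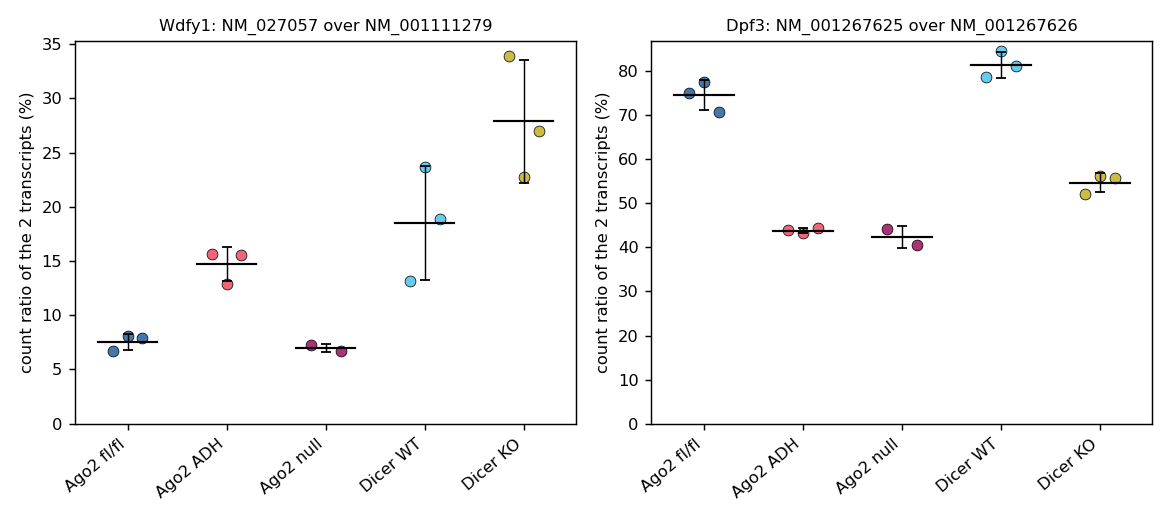
Count of a second transcript as a percentage of the main transcript's count for Wdfy1 and Dpf3, with 1 point per library, the mean as a bar and the SD as whiskers. For Wdfy1 the Ago2 ADH libraries (mean 14.7%) lie above Ago2 fl/fl and Ago2 null, and for Dpf3 both Ago2 mutants and Dicer KO lie below their controls.

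Among 24 other BAF and PBAF subunits, 22 were tested in Dicer KO, where 4 rose and 2 fell. In Ago2 ADH 7 of 23 rose and 4 fell, and in Ago2 null 4 rose and 4 fell. Smarca2, an ATPase of the complex, rose by 1.27, 1.21 and 1.11 on the log2 scale in Dicer KO, Ago2 ADH and Ago2 null. Smarcc2, a core scaffold subunit, rose by 1.29, 1.33 and 1.08 and Arid1b by 0.54, 0.46 and 0.37. Arid2, which marks the PBAF form, fell (log2 fold changes -0.39, -0.41 and -0.63). Actl6b, the neuronal actin-like subunit, had no count in any library. The medians of the list were 0.04, 0.11 and 0.09.

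Lancl1 and Dpf3 were both above their controls in all 3 mutants, and their upstream sequences in RefSeq (GRCm38.p6, minus strand) are shown to compare what letters lie before their starts. Both are written 5′ to 3′, with capitals marking CCAAT (or ATTGG on the other strand), GGGCGG (or CCGCCC) and TATAAA (or TTTATA), and none held the E-box CACGTG. The Lancl1 stretch is chr1:67038892-67039084, the 193 bases of its entry that lie upstream of the annotated gene, and the Dpf3 stretch is chr12:83487737-83487986.
Lancl1: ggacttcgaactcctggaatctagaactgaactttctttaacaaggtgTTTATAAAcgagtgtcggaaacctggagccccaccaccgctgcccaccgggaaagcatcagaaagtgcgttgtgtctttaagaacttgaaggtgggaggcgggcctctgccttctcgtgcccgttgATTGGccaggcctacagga
Dpf3: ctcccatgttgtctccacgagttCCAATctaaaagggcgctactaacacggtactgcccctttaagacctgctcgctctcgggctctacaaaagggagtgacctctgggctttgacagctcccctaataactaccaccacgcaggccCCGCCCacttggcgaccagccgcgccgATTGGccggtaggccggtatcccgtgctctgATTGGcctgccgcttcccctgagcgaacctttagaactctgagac
CCAAT was the letter string found before both, once before Lancl1 and 3 times before Dpf3. Over all 27025 promoters of the table, 27.8% held it in a window of 193 bases and 34.5% in 250 bases. Lancl1 also held TATAAA and TTTATA overlapping in one stretch (9.21% of all in 193 bases), and Dpf3 held 1 GGGCGG on the other strand (32.9% of all in 250 bases). These matches describe letters only.

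Gli3, a transcription factor of the Hedgehog pathway that acts mainly as a repressor without the ligand, lies on the plus strand of chr13:15463723-15730026. It shares exon bases with Gm6556. It read 40.9, 71.3 and 69.4 CPM in Ago2 fl/fl, 42.5, 54.0 and 47.9 in Ago2 ADH and 27.3 and 25.3 in Ago2 null. Ago2 ADH overlapped the controls, 1 of which was low, while Ago2 null lay below both. Against Ago2 fl/fl it fell by 0.29 (SE 0.142) in Ago2 ADH and by 1.16 (SE 0.168) in Ago2 null on the log2 scale. In Dicer WT the levels were 145, 107 and 151 CPM and in Dicer KO 102, 103 and 80.1. Dicer KO lay just below Dicer WT in every library, and the decrease of 0.50 on the log2 scale (SE 0.109) passed with edgeR's quasi-likelihood test (adjusted p = 0.000976) and did not with DESeq2 (adjusted p = 0.0217).

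The ligand Shh was read at a low level, with means of 1.06 CPM in Dicer WT and 1.01 in Ago2 fl/fl. It fell (log2 fold changes -1.89, -1.97 and -1.89) in Dicer KO, Ago2 ADH and Ago2 null. Gli2, the main activator of the family, rose by 0.71 in Dicer KO, was not called in Ago2 ADH (-0.07) and fell by 0.66 in Ago2 null. Cdon, a co-receptor of the ligand, fell by 0.60 in Dicer KO and was not called in Ago2 ADH or Ago2 null. Gpr161, a ciliary receptor that restrains the pathway, rose by 1.51 in Ago2 ADH, and its differences of 1.28 in Dicer KO and 1.45 in Ago2 null were not called. Its group means were also low, from 0.354 CPM in Ago2 fl/fl to 1.18 in Dicer KO. Of 16 other Hedgehog genes, 10 were tested in Dicer KO (1 rose, 2 fell), 11 in Ago2 ADH (2 rose, 1 fell) and 12 in Ago2 null (none rose, 3 fell). Ihh, Hhip and Gas1 did not exceed 0.139 CPM in any library. The medians of the list were 0.17, -0.11 and -0.20.

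Ccnd2 encodes cyclin D2, which drives cells through G1 and is known in the ovary as a target of follicle-stimulating hormone in granulosa cells. It lies on the minus strand at chr6:127125162-127152188, where exons of 9330179D12Rik and Gm43126 overlap it. It read 9.63, 7.47 and 10.1 CPM in Ago2 fl/fl, 9.84, 11.1 and 14.2 in Ago2 ADH and 5.10 and 4.32 in Ago2 null. Ago2 null lay below both other groups, which overlapped each other. Against Ago2 fl/fl the log2 differences were 0.41 (SE 0.142) in Ago2 ADH and -0.90 (SE 0.162) in Ago2 null. In Dicer WT it read 6.65, 3.31 and 7.65 CPM and in Dicer KO 6.29, 6.05 and 6.70. The Dicer groups overlapped, with a difference of 0.12 (SE 0.235, edgeR adjusted p = 0.711) that was -0.17 without Dicer WT replicate 2, the low library. The cumulus and granulosa markers (15 genes) summed to 80.9 to 86.4 CPM in Ago2 fl/fl, 63.8 to 70.1 in Ago2 ADH and 58.1 to 61.2 in Ago2 null, and to 97.9 to 104.8 in Dicer WT and 82.5 to 87.8 in Dicer KO. Cyp19a1 and Nr5a2 made up most of these sums. Among the Ago2 means, Fst (0.818 CPM in Ago2 ADH, 0.587 in Ago2 fl/fl, 0.290 in Ago2 null), Inhba, Inhbb, Hsd17b1 and Amh had the order of Ccnd2, all below 1 CPM. Kitl, Ptgs2, Has2, Fshr and Amhr2 were highest in Ago2 fl/fl. Foxl2 was at 0 in Ago2 fl/fl and Dicer WT, Amhr2 at 0 in Dicer KO, and Amh and Fshr stayed below 1 CPM in the group means. The part of these markers in the Ccnd2 levels was not tested.

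Of 18 other G1 cyclins, kinases and inhibitors, 16 were tested, with 2 up and 2 down in Dicer KO and 3 up and 3 down in each Ago2 mutant. Ccnd3, another D-type cyclin, rose by 1.03, 0.82 and 0.83 on the log2 scale in Dicer KO, Ago2 ADH and Ago2 null, and Cdk6, a kinase partner of D-type cyclins, fell (log2 fold changes -1.15, -1.21 and -1.54). Cdkn1c, an inhibitor of G1 kinases, rose by 1.00, 0.49 and 0.70, and the retinoblastoma gene Rb1 fell (log2 fold changes -0.20, -0.18 and -0.36). Cdkn2a did not exceed 0.0645 CPM. The medians of the list were 0.05, 0.03 and -0.11.

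Mnat1 encodes MAT1, the assembly factor of the CDK-activating kinase, which also forms part of the transcription factor TFIIH. It lies on the plus strand at chr12:73112185-73273988, 10.1 Mb from Dpf3. It read 20.7, 20.6 and 17.8 CPM in Ago2 fl/fl, 18.2, 20.03 and 18.9 in Ago2 ADH and 30.2 and 31.4 in Ago2 null. Ago2 ADH overlapped the control, and both Ago2 null libraries were above all others. The log2 change in Ago2 null was 0.68 (SE 0.0923) and Ago2 null was 1.63 times Ago2 ADH. In Dicer WT the levels were 19.4, 17.6 and 18.7 CPM and in Dicer KO 22.6, 21.9 and 22.8. The Dicer groups did not overlap, yet the difference of 0.28 on the log2 scale (SE 0.101) did not pass the FDR of 1% (edgeR adjusted p = 0.0294).

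The partners of MAT1 in that kinase differed from it. Cdk7, the kinase, rose by 1.76 in Dicer KO, 2.00 in Ago2 ADH and 1.97 in Ago2 null on the log2 scale, and Ccnh, its cyclin, by 2.03, 1.35 and 1.62. Gtf2h5, a small TFIIH subunit, rose by 0.33 and 0.31 in the Ago2 mutants. Of the 9 CAK and TFIIH genes besides Mnat1, 2 rose in Dicer KO and 3 in each Ago2 mutant, and none fell. The medians of the list were 0.14, 0.16 and 0.12.

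The positions of all 17 called genes were compared with those of the genes tested. On chromosome 12 lie 6 of them (35.3% of those called, where 3.38% of tested genes lie), and 3 on chromosome 1 (17.6%, where 6.01% lie). Chromosomes 15 and X hold 2 each (11.8% each, where 3.96% and 3.70% lie). Those on chromosome 15 are Ago2 and Gpr20, and those on X lie 83.9 Mb apart. Dpf3 has 3 further called genes within 5 Mb, Oog1, Gm2042 and Pramel51, so that 4 of 100 tested genes there were called by edgeR and 6 by DESeq2, with Fos and Gm16381 added. The counts of Oog1 and Gm2042 were near-identical, so they may share reads. Around Slc4a3 2 of 67 tested genes were called, Slc4a3 and Wdfy1, and around Lancl1, Gli3, Ccnd2 and Mnat1 the member alone was called by edgeR (of 35, 31, 84 and 69), while DESeq2 also called Erbb4 beside Lancl1 and Daam1 beside Mnat1. Of 7 listed genes known to vary between mouse strains, 3 were tested, and none had an unadjusted p under 0.05 between Ago2 ADH and Ago2 null. Hc, complement C5, was the one that changed against the controls, falling in all of them (log2 fold changes -1.79 in Dicer KO, -1.22 in Ago2 ADH and -1.29 in Ago2 null). Whether the called genes of any of these chromosomes lie in segments of one strain was not tested.

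**Figure D4:**
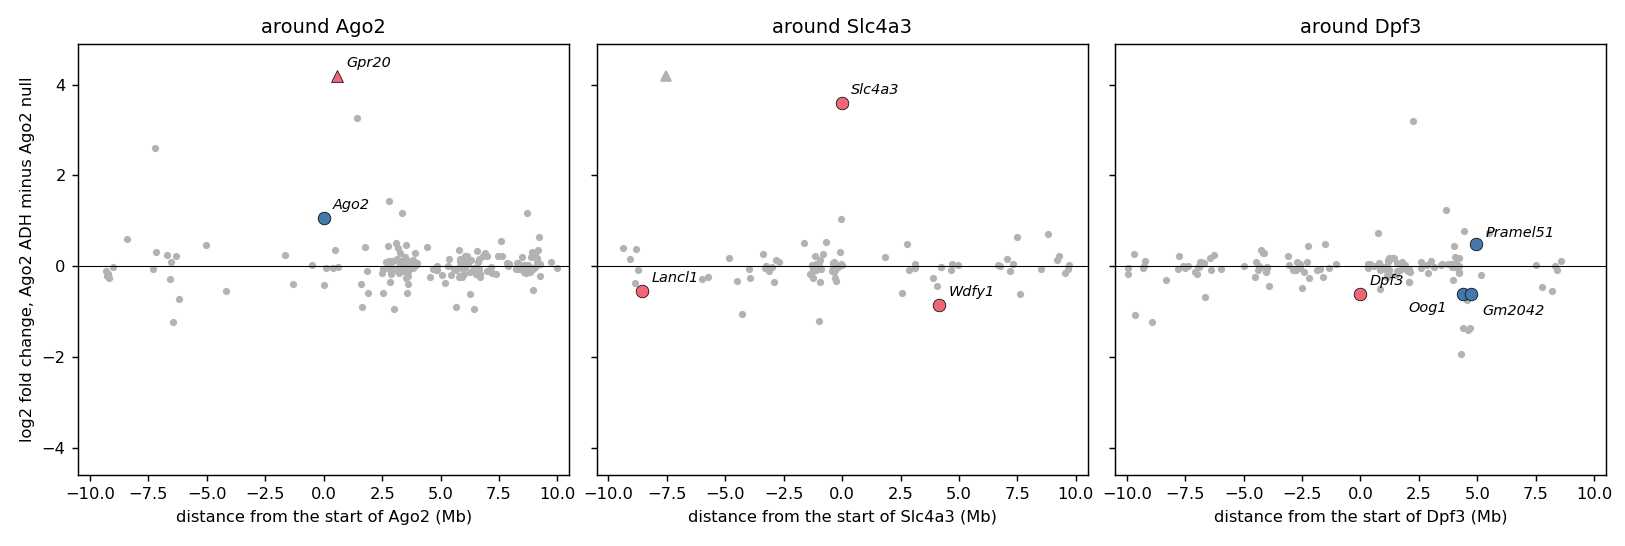
Log2 fold change of Ago2 ADH minus Ago2 null for tested genes against distance (Mb) from the start of Ago2, Slc4a3 or Dpf3, to 10 Mb on each side. Red points are members, blue points other called genes, grey points genes not called, and triangles are genes whose fitted value lies beyond the axis. On the left Gpr20 and Ago2 are the genes called, with no run of called genes around them, and some genes not called have larger values than Ago2.

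To see which genes resembled each member, log2 CPM was compared over the 14 libraries among 11518 genes with a mean of at least 1 CPM, as a description, since these libraries share genotype, lane and depth. The closest to Dpf3 was Xlr3c (Pearson r = 0.991), then B3gntl1 and Naip1. Htra1, a secreted serine protease, was closest to Lancl1 (0.992), and Mrpl9 was among the next. Ptprb was closest to Wdfy1 (0.983), followed by Cenpk and Sil1. Tnc, which encodes tenascin C, was closest to Slc4a3 (0.923), followed by Zfp521 and Abr, and Ice2 was closest to Gli3 (0.964), followed by Dennd4a and Top1. Tnc averaged 3.50 CPM in Ago2 fl/fl, 0.523 in Ago2 ADH and 0.0458 in Ago2 null, in the order that Slc4a3 had. For Mnat1 the closest was Cep128 (0.826), a centriole gene on the same chromosome, which averaged 9.99 CPM in Ago2 fl/fl, 12.9 in Ago2 ADH and 17.5 in Ago2 null, then M6pr and Psmd14. For Ccnd2 the closest were Trak2 (0.783), Rogdi and Adam32, and for Gpr20 Zfp609 (0.833), Ndst1 and Rreb1, none of which exceeded 0.833. Between members, r was 0.951 for Wdfy1 and Lancl1, 0.945 for Wdfy1 and Dpf3, 0.919 for Lancl1 and Dpf3 and -0.904 for Slc4a3 and Mnat1.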

How the data were processed

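The members and gene lists were chosen with earlier results of these data known. The deposited values were raw counts per RefSeq transcript and library, which the authors made from NuGEN-amplified cDNA of 20 oocytes. Per the methods and the submitters' processing notes, paired reads (36 or 50 bases) were aligned to mm10 with TopHat (TopHat2 2.0.7 in the notes), keeping up to 100 alignments, and counted with HTSeq 0.6.1 without strand, in the intersection-strict mode. The authors' own tests used DESeq. Reads in exons shared by several transcripts entered the count of each. The 5 rows that name no gene were left out of library sizes; they held reads outside transcripts and with several alignments.

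Of 26495 transcript IDs, 26077 matched the RefSeq table of GRCm38 (which mm10 denotes), 117 GENCODE, and 301 kept no symbol. The transcript with the highest mean count stands for a gene. Groups were taken from the sample labels. No 2 libraries of a group agreed within sampling noise (chi-square per degree of freedom 6.54 to 14.9). Per the methods, each tube pooled several animals of one genotype and replicates came from separate collections, while whether an animal gave oocytes to more than 1 tube is not given in the sources used here. Each comparison was fitted on its own libraries with edgeR 4.0.16 (R 4.3.3, quasi-likelihood, TMM, filterByExpr with minimum count 10), with Benjamini-Hochberg adjustment over all transcripts at an FDR of 1%. All 8 members passed the filter in 3 comparisons and 7 (without Gpr20) in Ago2 null against Ago2 fl/fl. The standard error is the log2 fold change over the square root of F. On simulated counts for Dicer KO against Dicer WT (18570 transcripts), 95 of 100 transcripts changed by 1 on the log2 scale were recovered, with 6 false calls. The changed transcripts were drawn from those with a mean over 5 CPM, so the rate does not cover lower genes such as Gpr20. Fewer transcripts were changed there than were called in the data. Alternatives were DESeq2 1.42.0, RLE scaling, no filter, an FDR of 5%, 1 transcript per gene, all 5 groups in one fit, each library left out and the replicate number as a block. Named neighbours were those called within 5 Mb and the 2 nearest tested genes on each side of Gpr20. From each list up to 4 called genes with the smallest p were named, with undetected genes, and for each member the 3 genes of highest correlation. Some genes that meet these rules are not reported here. Slc4a2 was named after its value was seen. The promoter table held 5 of the 8 members.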

Additional observations from a re-analysis of the deposited data

Results flagged for a closer look

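Reads with several alignments enter a tally outside the counts on transcripts, which no comparison above uses. Per count on transcripts, this tally was 1.61045 in Ago2 ADH (mean of 3), 1.61093 in Ago2 null (mean of 2) and 1.03078 in Dicer KO (mean of 3). It was 0.557 to 0.597 in Ago2 fl/fl and 0.388 to 0.536 in Dicer WT, so every mutant library lay above its controls. The 2 Ago2 mutants lay at one level here. The 8 genes differ between them by choice, and 0.119% of all tested transcripts were called in that comparison. The places these reads align to are not in the counts.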

How the results depend on the processing

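The number of transcripts called between Ago2 ADH and Ago2 null, the comparison that chose the genes, depends on the setting. It was 23, and became 81 with DESeq2, 142 with the replicate block, 94 without a filter on low counts, 56 at an FDR of 5% and 6 to 21 with one library left out (9 without Ago2 ADH replicate 1, 13 without Ago2 null replicate 1, 6 without Ago2 null replicate 2). Within 5 Mb of Ago2 it was 2 and, with one library left out, 1 to 2; Adgrb1 was added with the replicate block and without the filter. Replicate numbers did not pair the libraries: deviations of same-numbered libraries correlated at -0.123 to 0.0198 for the Dicer groups and at 0.00744 to 0.0318 for Ago2 ADH and Ago2 fl/fl. With the replicate block 5678 transcripts were called in Dicer KO (6412 without it), 7679 in Ago2 ADH (7663) and 6041 in Ago2 null (7157), and the 5 members called in Dicer KO were the same. That count was 4 with DESeq2 (without Gli3), 6 in one fit of all groups, without the filter or without Dicer KO replicate 2 (with Gpr20), and 7 at an FDR of 5%. The Ccnd2 difference in Dicer KO reversed, to -0.17, without Dicer WT replicate 2 and ranged from there to 0.36 with one library left out. In the choosing comparison 8 members passed, 7 in one fit of all groups (without Gli3), and 3 to 8 with one library left out, with Gpr20, Slc4a3 and Wdfy1 in each (3 without Ago2 null replicate 2, 5 without Ago2 ADH replicate 1 or Ago2 null replicate 1). The members were chosen by this comparison, so passing it again lends them no support. The causes were not tested. With 2 Ago2 null libraries, leaving one out leaves a single library, assumed to vary like the others.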
